A study of Rattus norvegicus with 3 samples.

Results

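Integrins and laminins form one of the links between a heart cell and the basement membrane around it. The 34 genes described here are the 17 integrin alpha, 7 integrin beta and 10 laminin chain genes whose symbols match Itga, Itgb or Lam with a chain number or letter, among 22250 genes measured. They were chosen by name and not by their values. Nuclei came from the heart apex (with parts of the septum and of both ventricles) of Sprague Dawley rats at 12 months of age. The 3 libraries were WT, from wild-type littermates, BMD, and DMD. BMD rats carry an in-frame deletion of Dmd exons 45 to 47 made with CRISPR/Cas9 and model Becker muscular dystrophy, in which a shortened and less abundant dystrophin is made. DMD rats lack Dmd exon 52 and model Duchenne muscular dystrophy, in which dystrophin is missing. DAPI-sorted nuclei were used, and the number of animals behind a library was not analysed here. With 1 library per genotype, no difference between genotypes could be tested. All intervals are at 95%, cover counting error only and leave out the spread between animals.

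An integrin is a receptor made of 1 alpha and 1 beta chain that spans the plasma membrane. Outside the cell it binds basement membrane and matrix proteins, and inside it is tied to actin through adaptors such as talin and vinculin. A laminin is a heterotrimer of an alpha, a beta and a gamma chain and is the main adhesive protein of the basement membrane. In striated muscle the laminin with the Lama2 chain is bound both by dystroglycan, the partner of dystrophin, and by the integrin with the Itga7 and Itgb1 chains. Loss of either Lama2 or Itga7 causes a muscular dystrophy of its own.

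The libraries held 19215994 to 21609238 UMIs (unique molecular identifiers, each standing for 1 captured RNA molecule), and 24664 barcodes in all were taken as nuclei. The median UMI total of a nucleus was 1213 for WT, 1487 for BMD and 1229 for DMD. Between 12 and 20 nucleus barcodes were shared by any pair of libraries and 0 by all of them. The classes used below are named from marker genes, with the members left out of the clustering. They include 4626 cardiomyocyte-like, 7457 fibroblast-like, 4927 endothelial-like, 1655 pericyte-like and 1796 macrophage-like nuclei, and the pericyte-like class also raised 7 of 7 smooth muscle markers. In cardiomyocyte-like nuclei Dmd itself was present at 16461, 20532 and 19462 CPM in WT, BMD and DMD. Counts over the whole gene do not check a deletion of a few exons, so the library labels were taken as given. A level is given as CPM, the UMIs of a gene per 1000000 UMIs of all genes in the nuclei of one class and library. Within a class, a share of RNA and not an amount per nucleus is measured.

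The members were not spread evenly over the heart's cell types. Of the 34 members, 28 had at least 200 UMIs over all nuclei. For 16 of these 28 the same class was highest in 3 of 3 libraries. The remaining 6 members were sparse, with Lama1 at 16 and Itga10 at 34 UMIs in all. Every member had at least 1 UMI.

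Laminin chains were found mainly in cardiomyocyte-like and fibroblast-like nuclei. Lama2, the alpha chain of muscle laminin, was in fibroblast-like nuclei at 4447 CPM in WT against 3635 in BMD and 3961 in DMD. Cardiomyocyte-like nuclei held it at 3498 CPM in WT against 3657 in BMD and 3934 in DMD, and pericyte-like nuclei at 2389 CPM in WT against 2177 in BMD and 2388 in DMD. Endothelial-like nuclei had 226, 230.1 and 242 CPM in the same order. Cardiomyocyte-like nuclei held 46.4% of all its UMIs and fibroblast-like nuclei 34.5%. Lamc1, the gamma chain of most laminins, was highest in fibroblast-like nuclei in 3 of 3 libraries, at 3102, 3158 and 2991 CPM in WT, BMD and DMD. Lamb1, a beta chain, was highest there too, at 454, 345 and 431 CPM. The alternative beta chain Lamb2 was highest in cardiomyocyte-like nuclei, at 285, 337 and 416 CPM, against 114, 142 and 166 CPM in fibroblast-like nuclei. Lamb3, a chain known from epithelial basement membranes, was also highest in cardiomyocyte-like nuclei in every library, at 14.2, 24.96 and 18.8 CPM. Lama4, the alpha chain of vessel walls, was highest in lymphatic endothelial-like nuclei, at 1285, 1692 and 1314 CPM, with fibroblast-like nuclei next at 1233, 1365 and 1294 CPM. Those neighbours overlapped in their counting intervals in WT and in DMD. Lama5 was highest in cardiomyocyte-like nuclei in 2 of 3 libraries and in endothelial-like nuclei in WT.

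Among the integrins, the leukocyte chains Itgal and Itgam were highest in immune classes in 3 of 3 libraries. Itgae was less clear, with T or B cell-like nuclei highest in 1 of 3 libraries. Cardiomyocyte-like nuclei held 35.9% of all Itgae UMIs and T or B cell-like nuclei 6.05%. Itgal, the alpha chain of the lymphocyte receptor LFA-1, was highest in T or B cell-like nuclei at 302, 314 and 221 CPM in WT, BMD and DMD. Itga2, a collagen receptor chain, was highest there at 147, 71.1 and 122 CPM. Itgam, the alpha chain of the myeloid receptor Mac-1, was highest in macrophage-like nuclei at 474, 340.5 and 242 CPM, and Itgav, which binds fibronectin, vitronectin and latent TGF-beta, at 281, 337 and 359 CPM. Itgax, a symbol that RefSeq also lists as a synonym of Itgad, was highest in T or B cell-like nuclei in 2 of 3 libraries. The T or B cell-like class was led by T and NK cell genes such as Skap1, Cd247 and Klrd1, while the B cell genes Ighm and Pax5 led an unnamed cluster of 125 nuclei. Itgb4, the beta chain of hemidesmosomes, was highest in Schwann cell-like nuclei at 779.8, 624 and 848 CPM, followed by endocardial-like nuclei at 179, 143 and 173 CPM. Itgb8, which activates latent TGF-beta, was also highest in Schwann cell-like nuclei at 458, 273 and 276 CPM. Itga3 was highest in endocardial-like nuclei at 57.9, 64.2 and 64.9 CPM, and Itga11, a collagen receptor chain, in fibroblast-like nuclei at 23.7, 14.996 and 22.1 CPM. In WT the Itga3 interval of endothelial-like nuclei, 41.2 to 66.6 CPM, included the endocardial-like level, so that order was within counting error. Cardiomyocyte-like nuclei held 52.4% of all Itga3 UMIs. Itga6, which forms laminin receptors, was highest in endothelial-like nuclei at 689, 696 and 547 CPM.

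The muscle laminin receptor chain Itga7 was highest in pericyte-like nuclei and not in cardiomyocyte-like nuclei. Pericyte-like nuclei had 237 CPM in WT against 258 in BMD and 215 in DMD, whereas cardiomyocyte-like nuclei had 171 CPM in WT against 144 in BMD and 90.5 in DMD. It was at most 7.16 CPM in fibroblast-like nuclei of any library and at most 8.81 CPM in endothelial-like nuclei. With more UMIs in all, cardiomyocyte-like nuclei held 69.9% of its UMIs and pericyte-like nuclei 12.2%. Itgb1, the beta chain it pairs with, was found in every class, and pericyte-like nuclei had 423, 521 and 521 CPM in WT, BMD and DMD. In WT the cardiomyocyte-like nuclei had its lowest level among the 10 named classes with over 100 nuclei. Itga9, known as a receptor chain for tenascin and for lymphatic valve matrix, had 1522, 1623 and 1742 CPM in lymphatic endothelial-like nuclei. In BMD the cardiomyocyte-like nuclei were above this level, and in DMD the intervals of the classes overlapped.

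**Figure D1:**
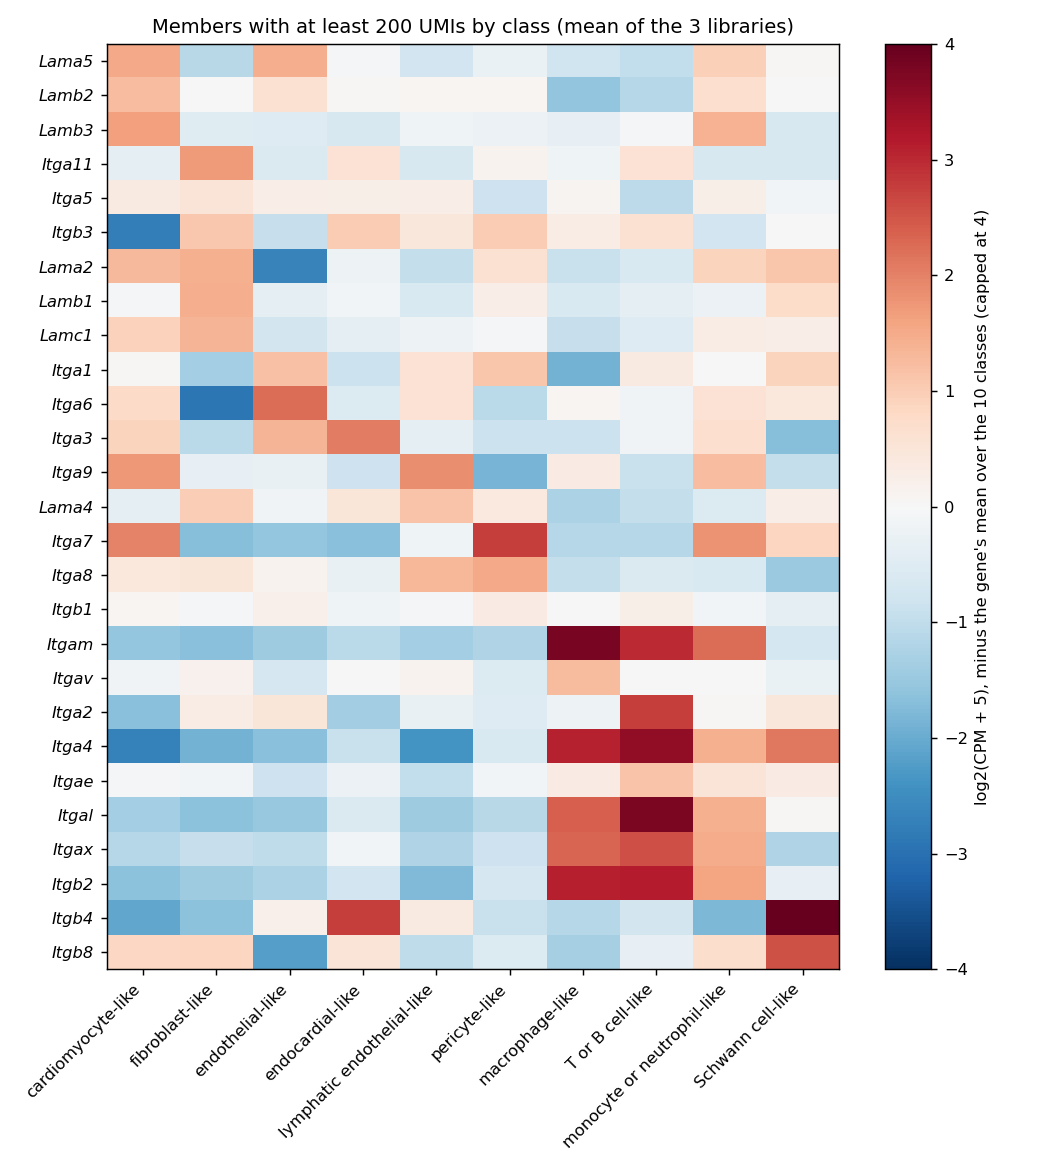
Level of the members with at least 200 UMIs that are reported by name, in 10 named classes, as log2 of CPM plus 5 (mean of the 3 libraries) minus the gene's own mean over the classes. Itgam, Itgal and Itgb2 were high in the immune classes, Itgb4 in Schwann cell-like and endocardial-like nuclei, Itga6 in endothelial-like nuclei, and Itga7 in pericyte-like and cardiomyocyte-like nuclei.

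The first comparison asked how the members differed between genotypes in cardiomyocyte-like nuclei, the muscle cells in which dystrophin normally lies under the membrane. Here Itga9, Itgb1, Lamc1 and Itga8 were each about 2-fold higher or more in both BMD and DMD, and Itga7 was lower in DMD. All 11 cardiomyocyte markers had UMIs in each library. The class held 2031 WT, 1532 BMD and 1063 DMD nuclei with a median of 2761, 3774 and 3269 UMIs. Of the 34 members, 22 had at least 50 UMIs in the class and were counted. The other 12 had at most 47 UMIs. On log2 of CPM plus 5, 7 of the 22 were past 1.5-fold higher in BMD than in WT and 1 was lower. Over all 10139 genes with at least 50 UMIs in the class, 4.68% were past it higher and 4.97% lower. In DMD, 6 of 22 were higher and 2 lower, against 6.14% and 6.12% of all genes. The median log2 ratio over the 22 members was 0.20 (0.026 to 0.42) for BMD and 0.35 (0.14 to 0.53) for DMD, where the bounds are the medians of the members' own bounds. The median over all 10139 genes was -0.05 and -0.03. The BMD and DMD ratios share the WT library, so a high or low WT value moves both.

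Itga9 was about 2-fold higher in both genotypes. Its level was 872 CPM (849 to 895) in WT against 1880.1 CPM (1847 to 1913) in BMD and 1703 CPM (1662 to 1745) in DMD. The BMD and DMD libraries both stood above WT, with no overlap of the intervals, at a log2 ratio over WT of 1.11 (1.06 to 1.15) in BMD and 0.97 (0.91 to 1.02) in DMD. After thinning every nucleus to 500 UMIs, 30.03% (28.05 to 32.1) in WT, 53.2% (50.7 to 55.7) in BMD and 53.3% (50.3 to 56.4) in DMD of cardiomyocyte-like nuclei had a UMI of Itga9. Without thinning the shares were 73.4%, 91.7% and 89.4%. Pericyte-like nuclei, in which the gene was lowest, had 3.42%, 6.11% and 4.88% after thinning.

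Itgb1, the beta chain shared by most laminin and collagen receptors, had 244 CPM (232 to 256) in WT against 469 CPM (453 to 486) in BMD and 539.9 CPM (517 to 564) in DMD. It was highest in DMD, with a log2 ratio over WT of 0.94 (0.86 to 1.03) in BMD and 1.15 (1.05 to 1.24) in DMD. The thinned share of nuclei with a UMI was 9.700% (8.45 to 11.1) in WT, 18.7% (16.8 to 20.8) in BMD and 22.7% (20.2 to 25.3) in DMD, and unthinned it was 42.4%, 68.4% and 71.4%. The same share in fibroblast-like nuclei was 14.6%, 15.99% and 17.1%. As point values, WT cardiomyocyte-like nuclei were below the fibroblast-like nuclei, and those of BMD and DMD were above them. This order of the classes was not tested.

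Lamc1 was about 2-fold higher in both genotypes. It had 1383 CPM (1355 to 1413) in WT against 2761 CPM (2721 to 2801) in BMD and 2781 CPM (2729 to 2834) in DMD, a log2 ratio of 0.997 (0.96 to 1.03) in BMD and 1.01 (0.97 to 1.05) in DMD. BMD and DMD overlapped with each other, at a log2 ratio of DMD over BMD of 0.01 (-0.024 to 0.045). The thinned share was 42.98% (40.8 to 45.2) in WT, 58.6% (56.04 to 61.03) in BMD and 61.3% (58.3 to 64.3) in DMD, against 10.7%, 16.8% and 21.6% in macrophage-like nuclei, and the unthinned one 84.3%, 92.2% and 92.6%.

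Itga8, a chain that pairs with Itgb1 and binds nephronectin and fibronectin, was sparse but had the largest ratio above WT. It had 100 UMIs in WT against 394 in BMD and 151 in DMD, or 15.8 CPM (12.8 to 19.2) in WT against 58.9 CPM (53.2 to 65.000) in BMD and 38.95 CPM (32.99 to 45.7) in DMD. The log2 ratio was 1.90 (1.58 to 2.23) in BMD and 1.31 (0.93 to 1.69) in DMD, and BMD was above DMD. The thinned share with a UMI was 0.443% (0.203 to 0.84) in WT, 1.63% (1.06 to 2.400) in BMD and 1.599% (0.934 to 2.55) in DMD, which is under 2% in every library, and macrophage-like nuclei had 0.144%, 0.514% and 0.965%. The unthinned share in cardiomyocyte-like nuclei was 1.97%, 9.14% and 5.83%. Free RNA held Itga8 at 9.52, 61.5 and 23.96 CPM in WT, BMD and DMD, of which the BMD value is as high as the level in the nuclei.

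Itga7 went the other way. Its level was 171 CPM (161 to 181) in WT against 144 CPM (135 to 153) in BMD and 90.5 CPM (81.3 to 101) in DMD, and the 3 intervals did not overlap. The log2 ratio over WT was -0.25 (-0.38 to -0.12) in BMD, inside 1.5-fold, and -0.92 (-1.09 to -0.74) in DMD. The ratio of DMD over BMD was -0.67 (-0.85 to -0.49). A UMI was found in 8.67% (7.48 to 9.97) in WT, 7.77% (6.48 to 9.22) in BMD and 5.36% (4.09 to 6.89) in DMD of nuclei after thinning, with 0.391%, 0.399% and 0.423% in endothelial-like nuclei, and in 39.2%, 41.5% and 25.1% of cardiomyocyte-like nuclei unthinned. Pericyte markers, whose class has the highest Itga7, summed to 989, 993 and 662 CPM in cardiomyocyte-like nuclei, against 10702 to 11756 CPM in pericyte-like nuclei. All 7 pericyte markers were detected in each library. Their sum was not split by gene, so it is not a measure of pericyte RNA alone. The 7 smooth muscle markers, also raised in the pericyte-like class, summed to 120, 90.0 and 115 CPM, against 1315 to 2361 CPM in pericyte-like nuclei. The part of either set in the Itga7 result was not tested.

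**Figure D2:**
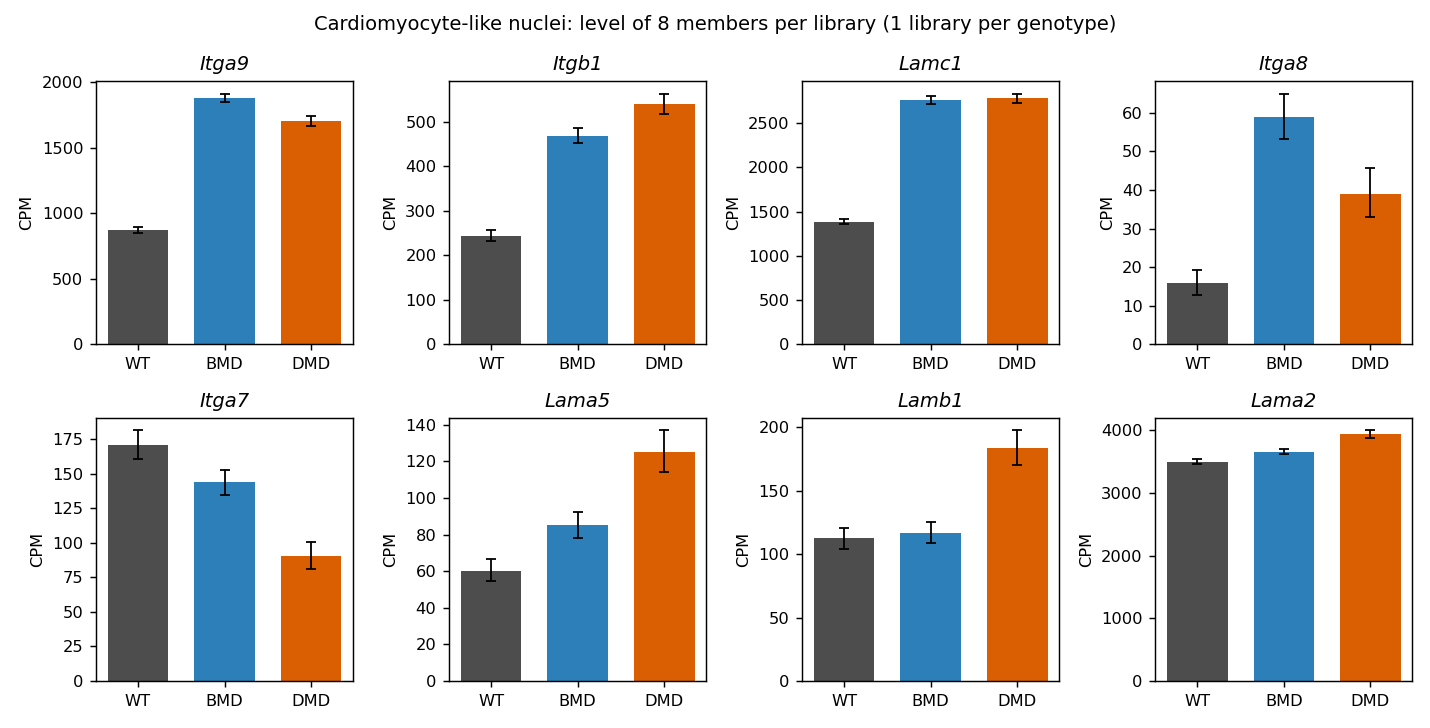
Level in CPM (y axes, each starting at 0) of 8 members in cardiomyocyte-like nuclei of the WT, BMD and DMD libraries, with exact Poisson 95% intervals. Itga9, Itgb1, Lamc1 and Itga8 were higher in BMD and DMD than in WT, Itga7 was lowest in DMD at 90.5 CPM, Lama5 and Lamb1 were highest in DMD, and Lama2 lay between 3498 and 3934 CPM.

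Among the remaining laminins, Lama2 was close to level, at 3498, 3657 and 3934 CPM in WT, BMD and DMD with a log2 ratio of 0.064 (0.038 to 0.09) and 0.17 (0.14 to 0.20). Lamb2 had 285, 337 and 416 CPM, and its log2 ratio was 0.24 (0.15 to 0.33) in BMD and 0.55 (0.45 to 0.64) in DMD, inside 1.5-fold. Lama5 and Lamb1 passed 1.5-fold in DMD and not in BMD. Lama5, an alpha chain of vessel and epithelial basement membranes, had 60.3 CPM in WT against 85.04 in BMD and 125 in DMD, and the log2 ratio over WT was 0.49 (0.31 to 0.69) for BMD and 1.05 (0.86 to 1.25) for DMD. Lamb1 had 112 CPM in WT against 117 in BMD and 184 in DMD, and the log2 ratio over WT was 0.059 (-0.089 to 0.21) for BMD and 0.71 (0.56 to 0.86) for DMD. Lamb3 was past 1.5-fold in BMD alone, at 14.2, 24.96 and 18.8 CPM and a log2 ratio of 0.82 (0.44 to 1.20) in BMD against 0.41 (-0.056 to 0.87) in DMD. The 11 fibroblast markers summed to 263, 213 and 449 CPM in cardiomyocyte-like nuclei, and the 9 endothelial markers to 116, 182 and 204 CPM. Both sums were highest in DMD, as were Lamb1 and Lama5, and all of these markers had UMIs in DMD. Their part in these values was not tested. In the free RNA Lama5 was at 35.5, 103 and 129.7 CPM and Lamb3 at 6.35, 22.1 and 16.9 CPM, close to their levels in the BMD and DMD nuclei, and Lamb1 at 314, 181 and 348 CPM, above its level in every library. Free RNA was estimated as at most 3.55%, 6.59% and 4.90% of the UMIs of the class. Itgb1 in the free RNA was at 459, 462 and 471 CPM and Itga7 at 109.8, 145 and 94.4 CPM. With free RNA subtracted at those shares, the ratios of these 5 genes stayed within their intervals.

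Of the other integrins, Itga6 was higher in BMD alone, at 192 CPM in WT against 311 in BMD and 193 in DMD, and the log2 ratio over WT was 0.69 (0.59 to 0.79) for BMD and 0.0061 (-0.13 to 0.14) for DMD. The DMD over BMD ratio was -0.68 (-0.81 to -0.56), so these libraries differed beyond counting error. Itgb8 had 70.9 CPM in WT against 117 in BMD and 108 in DMD, and its log2 ratios of 0.72 (0.55 to 0.89) and 0.60 (0.41 to 0.80) fell on both sides of the limit, since on CPM plus 5 the DMD value was 0.57, just under the log2 of 1.5-fold. Itgal was lower in both, but with 39 UMIs in WT against 11 in BMD and 7 in DMD its log2 ratios of -1.90 (-3.02 to -0.91) and -1.77 (-3.17 to -0.59) were wide, and it is a leukocyte chain with 27.9, 14.2 and 31.004 CPM in the free RNA of WT, BMD and DMD. In BMD the member nearest to the limit inside was Lamb3 at 0.64 and outside Lama5 at 0.46. In DMD they were Lamb1 at 0.69 and Itgb8. The alpha chain of fibronectin receptors, Itga5, lay on opposite sides of WT, at -0.29 (-0.45 to -0.12) in BMD and 0.36 (0.19 to 0.53) in DMD. Itga1, a collagen and laminin receptor chain, was inside 1.5-fold, at 0.38 and 0.34.

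**Figure D3:**
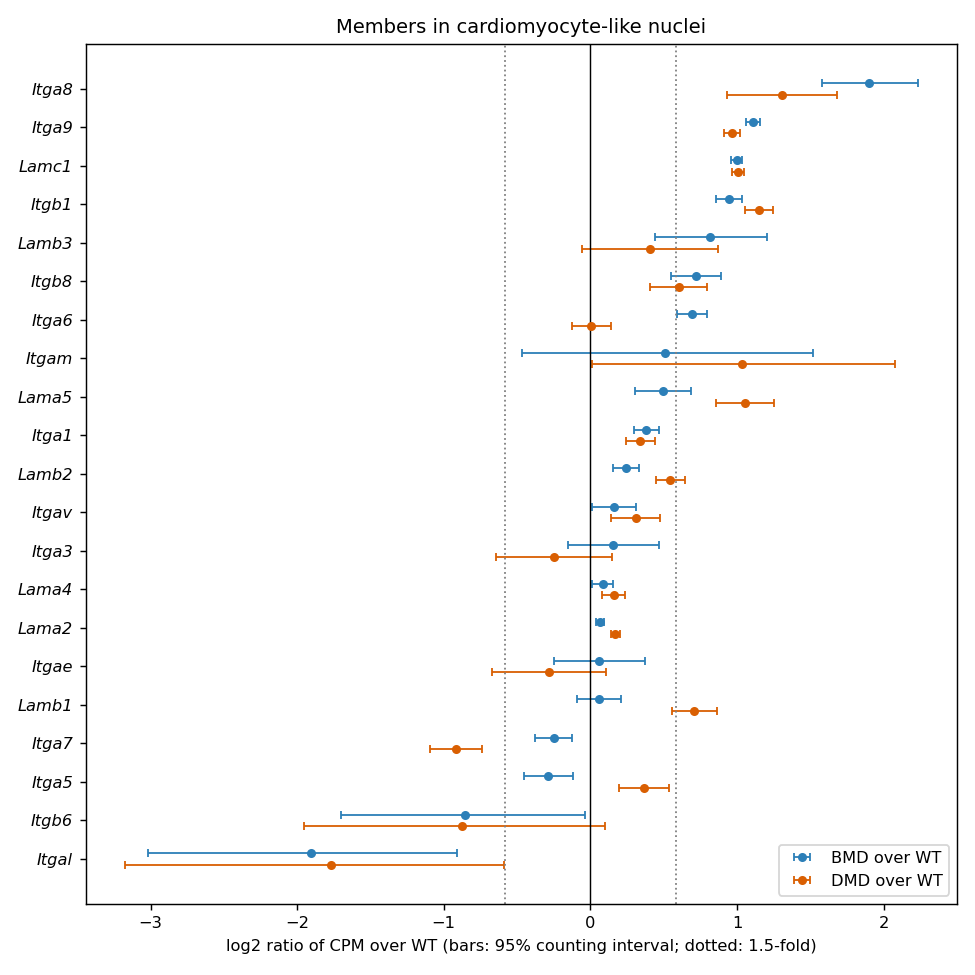
Log2 ratio of CPM over WT (x axis) for the members with at least 50 UMIs in cardiomyocyte-like nuclei that are reported by name (y axis), with 95% counting intervals for BMD and DMD and dotted lines at 1.5-fold. Itga8, Itga9, Lamc1 and Itgb1 lay to the right in both comparisons, Itga7 to the left in DMD, and Itgam, Itgb6 and Itgal had wide intervals.

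At a finer clustering (Leiden resolution 1.0, where resolution sets how finely nuclei are split), the cardiomyocyte-like nuclei formed 2 clusters. One of 3147 nuclei was led by Lsamp, Ky and Myh6, the fast myosin heavy chain of the adult rat heart. The other, of 1455 nuclei, was led by Xirp2, Nppa and Nppb, where Nppa and Nppb encode natriuretic peptides of stressed heart muscle. The first held 1895 WT, 658 BMD and 594 DMD nuclei and the second 132, 861 and 462, so most BMD and few WT nuclei of the class were in the second. The members had no part in defining either cluster.

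Within each of these clusters, the members did not all behave as in the whole class. Itga9 was higher in BMD and DMD within both, at 830.2, 1455 and 1549 CPM in WT, BMD and DMD of the Myh6 cluster and 1332, 2127 and 1858 CPM in the Nppa cluster. Its log2 ratio was 0.81 (0.75 to 0.87) and 0.68 (0.56 to 0.79) in BMD. In DMD it was 0.90 (0.83 to 0.97) and 0.48 (0.36 to 0.60). Lamc1 was likewise higher in both clusters, at 1285, 1881 and 2147 CPM and 2450.5, 3246 and 3410.3 CPM. Its log2 ratio was 0.55 (0.50 to 0.60) and 0.41 (0.32 to 0.49) in BMD. In DMD it was 0.74 (0.69 to 0.80) and 0.48 (0.39 to 0.56). For Itga9 and for Lamc1, each ratio within a cluster was smaller than in the whole class. Itga7 was lower in DMD in both, with a log2 ratio of -0.83 (-1.06 to -0.59) and -1.20 (-1.56 to -0.84).

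Itgb1 was higher only in the Myh6 cluster, where it had 207, 313 and 458 CPM and a log2 ratio of 1.15 (1.02 to 1.27) in DMD. In the Nppa cluster it had 647, 559 and 622 CPM, with a log2 ratio of -0.21 (-0.38 to -0.045) in BMD and -0.057 (-0.23 to 0.12) in DMD. In all 3 libraries the Nppa cluster had more Itgb1 than the Myh6 cluster, and the difference between the clusters' ratios was not tested. Itga8 showed a larger split between clusters than between genotypes, at 10.2, 14.7 and 15.9 CPM in the Myh6 cluster and 75.1, 84.2 and 61.6 CPM in the Nppa cluster. Its ratios within clusters all had intervals that included 0. Lama2 was the reverse case. It was level over the whole class and higher within each cluster, at 3668, 4920.5 and 4598 CPM in the Myh6 cluster and 1636, 2957 and 3298 CPM in the Nppa cluster. The log2 ratio of Lama2 in BMD was 0.42 (0.39 to 0.46) and 0.85 (0.75 to 0.95), and in DMD 0.33 (0.29 to 0.36) and 1.01 (0.91 to 1.11).

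**Figure D4:**
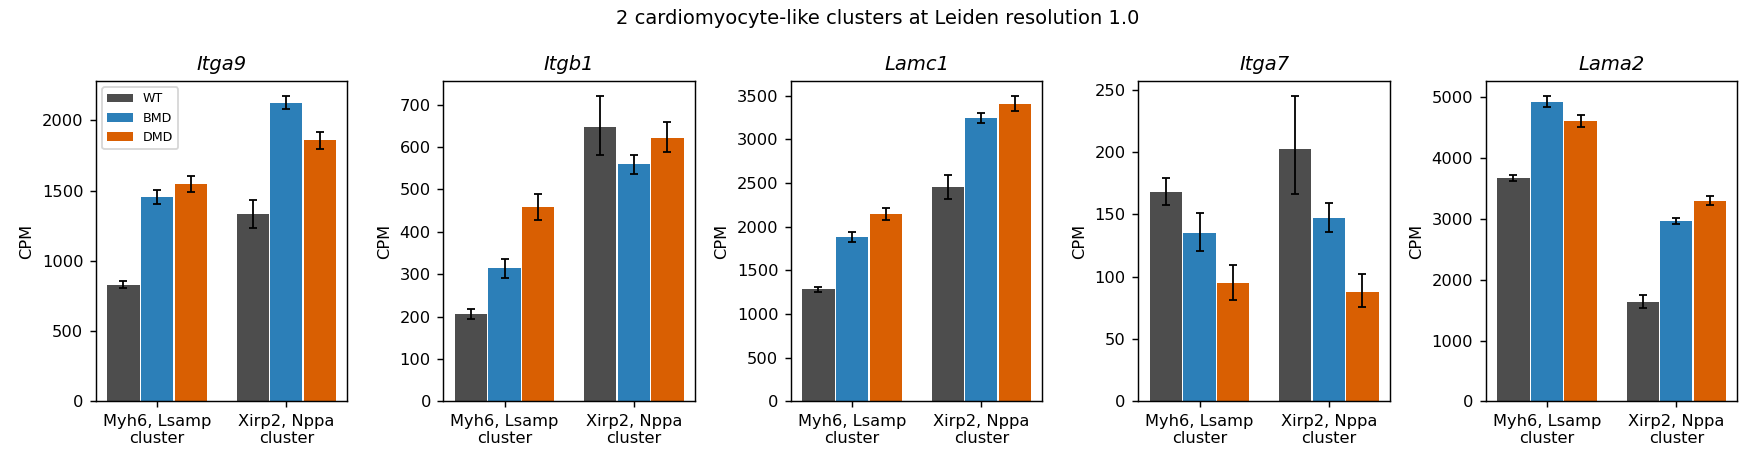
Level in CPM (y axes from 0) of Itga9, Itgb1, Lamc1, Itga7 and Lama2 in the 2 cardiomyocyte-like clusters found at Leiden resolution 1.0, by library, with exact Poisson 95% intervals. Itgb1 differed between libraries in the Myh6 cluster but lay between 559 and 647 CPM in the Nppa cluster, and Lama2 was higher in BMD and DMD within both.

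Itga8, Itga9, Itgb1 and Lamc1 were the members past 1.5-fold higher in both BMD and DMD in cardiomyocyte-like nuclei as a whole. Within the clusters above, the Itga8 intervals included 0 and Itgb1 was not higher in the Nppa cluster. The promoters of all 4 members are shown. The RefSeq promoter table covered 26 of the 34 members and all 4 of these. Each window runs from 250 bases before to 50 after the start of the gene, on the gene's strand, in build GRCr8, which differs from that of the counts. The capitals mark matches on either strand to GGAATG, the MCAT element that TEAD factors bind in muscle genes.
Itga8 promoter, chr17:80410584-80410883, minus strand, with 0 matches.
Itga8: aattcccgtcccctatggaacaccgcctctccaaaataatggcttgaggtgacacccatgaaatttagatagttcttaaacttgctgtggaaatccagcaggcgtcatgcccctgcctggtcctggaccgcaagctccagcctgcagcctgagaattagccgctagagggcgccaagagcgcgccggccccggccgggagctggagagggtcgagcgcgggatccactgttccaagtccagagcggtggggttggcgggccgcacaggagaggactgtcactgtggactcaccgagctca
Itga9 promoter, chr8:127185039-127185338, plus strand, with 0 matches.
Itga9: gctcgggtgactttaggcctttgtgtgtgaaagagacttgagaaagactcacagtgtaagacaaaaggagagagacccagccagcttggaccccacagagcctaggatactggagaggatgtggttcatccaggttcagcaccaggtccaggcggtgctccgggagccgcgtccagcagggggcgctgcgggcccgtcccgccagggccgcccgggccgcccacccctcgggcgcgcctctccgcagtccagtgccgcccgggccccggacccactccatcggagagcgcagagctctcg
Itgb1 promoter, chr19:73602027-73602326, plus strand, with 1 match.
Itgb1: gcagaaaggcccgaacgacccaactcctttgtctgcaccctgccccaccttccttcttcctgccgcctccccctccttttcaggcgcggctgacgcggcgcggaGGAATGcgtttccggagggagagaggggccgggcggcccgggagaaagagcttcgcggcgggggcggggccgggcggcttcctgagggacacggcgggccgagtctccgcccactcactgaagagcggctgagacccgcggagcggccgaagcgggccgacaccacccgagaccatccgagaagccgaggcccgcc
Lamc1 promoter, chr13:68051937-68052236, minus strand, with 1 match.
Lamc1: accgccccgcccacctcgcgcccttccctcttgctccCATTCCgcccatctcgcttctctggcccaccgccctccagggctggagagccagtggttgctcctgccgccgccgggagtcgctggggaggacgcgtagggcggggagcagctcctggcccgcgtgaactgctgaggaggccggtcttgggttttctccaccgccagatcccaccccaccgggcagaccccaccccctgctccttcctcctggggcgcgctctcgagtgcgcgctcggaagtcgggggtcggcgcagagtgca

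The match of Itgb1 starts 146 bases and that of Lamc1 213 bases before the gene start. An MCAT match was found in 14.2% of all 33469 promoters of the table, in 2 of these 4, and in 2 of the 13 other members with a promoter that passed the UMI minimum in the class. None of the 4 held TGANTCA, the AP-1 motif, or the CArG box of serum response factor, which 7.33% and 1.64% of all promoters held. GGGCGG, the GC box, occurred 3 times in Itga9, 4 times in Itgb1 and 5 times in Lamc1 and was not in the Itga8 window, and 33.1% of all promoters held it. GC content was 60.3% in Itga8, 66.7% in Itga9 and 71.7% in both Itgb1 and Lamc1. These are matches of letters, and no binding was measured. The motifs were chosen with the sequences in view, so the shares over all promoters do not test these counts.

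The proteins that tie integrins to actin were then set beside the receptors. Of 24 adaptor genes listed, 21 passed the minimum of 50 UMIs in this class. Among them 5 were past 1.5-fold higher and 0 lower in BMD, against 4.68% and 4.97% of all genes in the class. In DMD 6 were higher and 1 lower, against 6.14% and 6.12%. The median log2 ratios of the adaptors were 0.27 and 0.21. The listed genes were not split by cluster. In BMD the filamin genes had the largest ratios of the list. Flna had 9.93 CPM in WT against 36.9 in BMD and 59.3 in DMD, and the muscle filamin Flnc 98.95 CPM in WT against 219.7 in BMD and 181 in DMD, and the BMD log2 ratio was 1.89 (1.49 to 2.32) for Flna and 1.15 (1.02 to 1.29) for Flnc. Zyx, a focal adhesion protein that responds to stretch, had 27.7 CPM in WT against 59.04 in BMD and 72.2 in DMD. Itgb1bp2 encodes melusin, a muscle protein that binds the Itgb1 tail. It had 107 CPM in WT against 208 in BMD and 207 in DMD, and the log2 ratio over WT was 0.96 (0.82 to 1.09) for BMD and 0.95 (0.80 to 1.10) for DMD.

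The talin genes differed in direction. Tln1, the widely expressed talin, had 108 CPM in WT against 191 in BMD and 209.7 in DMD and log2 ratios of 0.82 (0.68 to 0.96) and 0.95 (0.80 to 1.10). Tln2, the talin of mature muscle, had 239 CPM in WT against 194 in BMD and 185 in DMD and log2 ratios of -0.30 (-0.40 to -0.19) and -0.37 (-0.50 to -0.24), inside 1.5-fold. Ilk, the integrin-linked kinase, was past the limit in DMD alone, at 20.5 CPM in WT against 28.2 in BMD and 39.98 in DMD. Vcl, vinculin, was level at 703, 645 and 765 CPM in WT, BMD and DMD. Tns3, a tensin, was lower, at 195 CPM in WT against 130.3 in BMD and 119.7 in DMD, and passed 1.5-fold in DMD.

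The other basement membrane genes in cardiomyocyte-like nuclei numbered 11 of 14 with enough UMIs, of which 3 were higher and 2 lower in BMD and 3 higher and 1 lower in DMD. The shares over all genes of the class are those given beside the adaptors. The collagen IV chains Col4a1 and Col4a2, which form the network laminin lies on, had 129.99, 254 and 272 CPM and 61.3, 94.9 and 113 CPM in WT, BMD and DMD, and Col18a1 had 23.005, 66.4 and 42.6 CPM. The endothelial markers in this class summed to 116, 182 and 204 CPM, and the fibroblast markers to 263, 213 and 449 CPM. Their part in these collagen values, and in those of Flna above, was not tested. Col4a3 and Col4a4 were lower in BMD, at 80.4, 46.5 and 86.2 CPM and 33.4, 16.7 and 38.2 CPM. Ntn4, a netrin that binds laminin, was lower in DMD, at 271, 337 and 177 CPM. Dag1, which encodes dystroglycan, the laminin receptor that dystrophin anchors, had 54.7, 52.9 and 44.4 CPM and log2 ratios of -0.047 (-0.27 to 0.17) and -0.30 (-0.57 to -0.034). Among 6 other ligands with enough UMIs, 1 was higher and 1 lower in BMD and 3 were higher in DMD. Vwf had 4.25, 9.27 and 14.2 CPM, and is itself one of the endothelial markers. Fbn1 and Thbs1 passed the limit in DMD, at 17.3, 23.02 and 28.9 CPM and 3.31, 3.14 and 8.77 CPM, and Spp1 was lower in BMD, at 11.03, 5.08 and 10.3 CPM.

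In fibroblast-like nuclei fewer members differed, and the largest ratio of any member in the 4 classes compared was that of Itga8. The class held 3522 WT, 1651 BMD and 2284 DMD nuclei, and 21 members had at least 50 UMIs. Past 1.5-fold, 3 were higher and 0 lower in BMD, where 4.41% of 10709 genes were higher and 6.35% lower. In DMD 3 were also higher and 0 lower, against 4.02% and 2.83% of genes. The median log2 ratio of the members was 0.15 (-0.085 to 0.49) for BMD and 0.14 (-0.089 to 0.45) for DMD, against -0.05 and -0.02 over all genes.

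Itga8 was read from 24 UMIs in WT against 213 in BMD and 144 in DMD. Its level was 4.95 CPM (3.17 to 7.37) in WT against 72.6 CPM (63.2 to 83.02) in BMD and 41.4 CPM (34.9 to 48.8) in DMD, and the WT interval was far below the others. The log2 ratio was 3.87 (3.26 to 4.55) in BMD and 3.06 (2.43 to 3.75) in DMD. A UMI was found in 0.256% (0.117 to 0.485) in WT, 3.09% (2.31 to 4.04) in BMD and 1.401% (0.96 to 1.97) in DMD of nuclei thinned to 500 UMIs. The unthinned shares were 0.653%, 7.15% and 4.12%, and macrophage-like nuclei had 0.144%, 0.514% and 0.965% after thinning. In the free RNA, taken from barcodes with at most 50 UMIs, Itga8 was at 9.52, 61.5 and 23.96 CPM, and free RNA was estimated as at most 6.49%, 6.15% and 8.13% of the UMIs of fibroblast-like nuclei. After subtraction of free RNA at those shares the log2 ratio was 3.98 in BMD and 3.21 in DMD.

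The fibroblast-like nuclei formed 2 clusters, and their make-up differed between libraries. In the Tnc-led one were 186 of the 3522 WT nuclei, 167 of the 1651 from BMD and 137 of the 2284 from DMD, and at resolution 1.0 a Pi16-led one held 430, 664 and 754. A large one of 6967 nuclei had Itga8 at 5.100, 56.3 and 33.6 CPM in WT, BMD and DMD. The other, of 490 nuclei and led by Tnc, Ccl2 and Ptx3, had 2.96, 178 and 138 CPM, from 1, 70 and 36 UMIs. Its log2 ratio over WT was 5.91 (3.38 to 11.23) in BMD and 5.55 (2.98 to 10.89) in DMD, with bounds as wide as 1 WT count gives. The higher level in BMD and DMD was seen in both clusters. At Leiden resolution 1.0 it was seen in each of 4 fibroblast-like clusters, at 8.46, 94.2 and 55.2 CPM in the Pi16 one, 3.88, 11.3 and 15.6 CPM and 7.12, 63.3 and 55.8 CPM in ones led by Abca8a and Runx2, and 2.74, 173 and 113 CPM in the Tnc cluster. Itgb1 was also higher in the Tnc cluster than in the large one, at 739.6, 764 and 696 CPM against 334, 340.2 and 349 CPM.

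**Figure D5:**
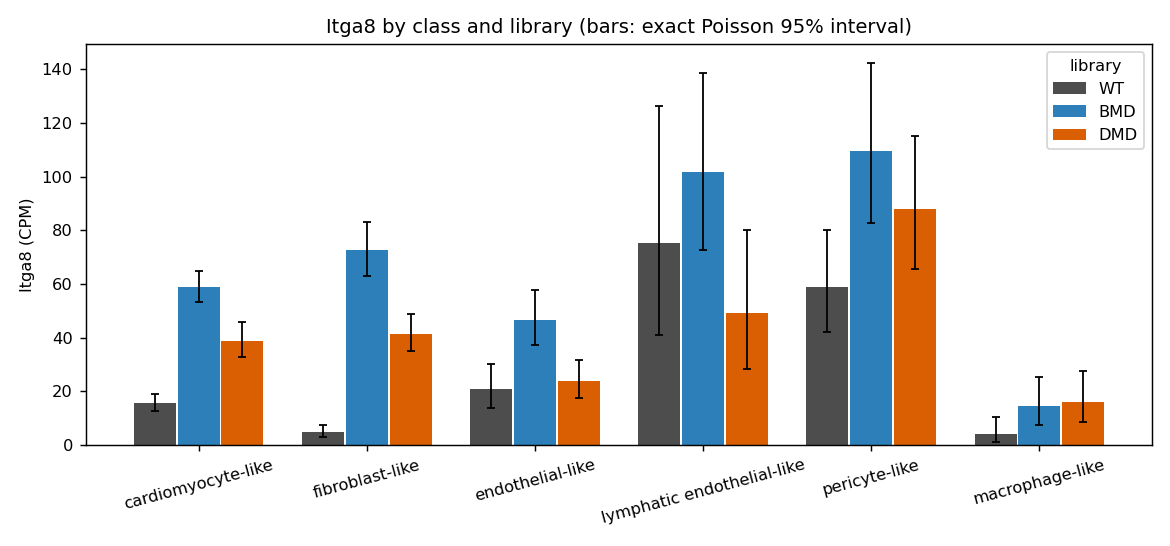
Level of Itga8 in CPM (y axis from 0) in 6 classes (x axis) of the WT, BMD and DMD libraries, with exact Poisson 95% intervals. The widest gap between WT and BMD was in fibroblast-like nuclei, at 4.95 against 72.6 CPM, and the lymphatic endothelial-like intervals overlapped.

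Itga1 was the other member past 1.5-fold in both genotypes in fibroblast-like nuclei. It had 88.5 CPM in WT against 162 in BMD and 146 in DMD, and the log2 ratio over WT was 0.87 (0.68 to 1.07) for BMD and 0.72 (0.53 to 0.91) for DMD. Itga6 passed it in BMD, at 8.66, 21.1 and 11.2 CPM, and Itga4, a receptor chain for fibronectin and VCAM-1, in DMD, at 4.95, 8.52 and 12.1 CPM. All of these were below their free RNA levels, which were 225, 279 and 221 CPM for Itga1, 144, 211 and 169 CPM for Itga6 and 74.3, 47.3 and 59.2 CPM for Itga4. Lama2 was lower in both, at a log2 ratio of -0.29 (-0.32 to -0.26) in BMD and -0.17 (-0.20 to -0.14) in DMD, inside 1.5-fold. Within the 4 clusters at resolution 1.0 its sign was mixed. In the Pi16 cluster it was higher, at 0.18 (0.10 to 0.25) in BMD and 0.14 (0.07 to 0.22) in DMD, and in the Tnc cluster it was at 0.082 (-0.063 to 0.23) and 0.38 (0.22 to 0.54). In the Abca8a cluster it was at -0.11 (-0.16 to -0.064) and -0.023 (-0.062 to 0.017), and in the Runx2 cluster at -0.39 (-0.51 to -0.27) and -0.49 (-0.59 to -0.40). Lamc1 was level, at 0.026 and -0.053, and so was Itgb1, at 0.13 and 0.05, while both were about 2-fold higher in cardiomyocyte-like nuclei. Lamb1 was at -0.40 (-0.51 to -0.29) in BMD and -0.075 (-0.17 to 0.02) in DMD. Lamb2 was at 0.31 (0.12 to 0.49) and 0.53 (0.36 to 0.70), the member nearest to the limit from outside in DMD. Cardiomyocyte markers summed to 481, 870 and 793 CPM in fibroblast-like nuclei, and their part in these values was not tested.

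Fibronectin, a matrix protein that integrins bind, was higher in both genotypes in this class, and tenascin C in BMD. Of 10 other ligand genes with enough UMIs, 4 were past 1.5-fold higher in BMD and 4 in DMD, and 0 were lower. Over all genes of the class, 4.41% were higher and 6.35% lower in BMD, and 4.02% and 2.83% in DMD. Fn1, fibronectin, a ligand of the Itga8 and Itga5 receptors, had 101 CPM in WT against 239 in BMD and 158 in DMD. Tnc, tenascin C, a ligand of the Itga8 and Itga9 receptors, had 78.8 CPM in WT against 189.8 in BMD and 106 in DMD, and also led the small cluster that held a larger part of the BMD nuclei. Postn, periostin, had 384, 649 and 538 CPM, and like Tnc passed 1.5-fold in BMD and not in DMD. Fn1 passed it in both, as did Tgfb1, whose latent form binds Itgav and Itgb8 receptors, at 32.2, 61.3 and 56.4 CPM. Spp1, osteopontin, and Vwf were higher in DMD alone, at 28.1, 27.6 and 97.8 CPM and 14.6, 12.6 and 43.1 CPM. Spp1 also led a macrophage-like cluster and Vwf is an endothelial marker, and the macrophage markers summed to 41.0, 45.7 and 62.4 CPM and the endothelial markers to 253, 315 and 354 CPM in fibroblast-like nuclei, whose part was not tested.

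Of 13 other basement membrane genes, by contrast, 0 were higher and 5 lower in BMD, and 1 was higher and 5 lower in DMD, with medians of -0.44 and -0.30. The shares over all genes of the class are those given beside the ligands. Col4a3 and Col4a4 had 739, 454 and 451 CPM and 645, 342 and 402 CPM. Nid2, a nidogen that joins laminin to collagen IV, had 36.9, 20.1 and 16.1 CPM, and Col18a1 63.7, 31.01 and 34.8 CPM. Dag1 had 199, 90.997 and 159 CPM, and the log2 ratio over WT was -1.13 (-1.33 to -0.93) for BMD and -0.32 (-0.48 to -0.17) for DMD. Ntn4 was lower in DMD, at 282, 306 and 173 CPM, and Col4a2 higher, at 86.2, 131 and 171 CPM. Of 21 adaptors 3 were higher and 0 lower in BMD, and 1 was higher and 1 lower in DMD. They were Tns3 at 139.9, 274 and 218 CPM, Vcl at 151, 236 and 146 CPM and Actn1 at 96.9, 151 and 84.6 CPM, and in DMD Tns3 again and, lower, Parvb at 20.6, 17.7 and 11.5 CPM. Ilk had 85.4, 87.6 and 104 CPM, Tln2 125, 112 and 112 CPM and Itgb1bp2 5.57, 8.52 and 7.77 CPM, inside the limit.

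In endothelial-like nuclei Itga3 was lower in both genotypes and few other members differed. Of 19 members with at least 50 UMIs, 1 was higher and 1 lower in BMD, against 4.06% and 6.20% of 8925 genes, and 0 were higher and 1 lower in DMD, against 4.25% and 3.10%. Itga3, a laminin receptor chain, was the lower one in both, at 52.8 CPM in WT against 31.9 in BMD and 25.5 in DMD, and the log2 ratio over WT was -0.73 (-1.25 to -0.20) for BMD and -1.05 (-1.60 to -0.51) for DMD. Itga8 was the higher one in BMD, at 20.8 CPM in WT against 46.8 in BMD and 23.97 in DMD and a log2 ratio of 1.17 (0.54 to 1.84), which is below the free RNA level in BMD. Itga6, a laminin receptor chain with its highest level in this class, was at 0.016 (-0.11 to 0.14) in BMD and -0.33 (-0.46 to -0.21) in DMD. Itgb1 was at 0.055 (-0.10 to 0.21) and 0.19 (0.037 to 0.34), and Lamc1 at 0.33 (0.21 to 0.45) and 0.046 (-0.077 to 0.17). Lama2 was at 0.025 and 0.10, Lamb1 at 0.11 and 0.46, and Lamb2 at 0.065 and 0.43. Of 21 adaptors 0 passed 1.5-fold in BMD and 1 was higher in DMD. Of 12 other basement membrane genes 2 were higher and 1 lower in BMD and 2 higher in DMD, and of 11 other ligands 1 was lower in BMD and 2 were higher and 1 lower in DMD.

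In pericyte-like nuclei 16 members could be counted, on 510728 to 679074 UMIs per library. In BMD 3 were past 1.5-fold higher and 2 lower, where 6.48% and 9.37% of 6202 genes were, and in DMD 1 was higher and 0 lower, against 6.43% and 6.13%. Itga9 was higher in both, at 69.2 CPM in WT against 151 in BMD and 132 in DMD, and the log2 ratio over WT was 1.12 (0.58 to 1.68) for BMD and 0.93 (0.39 to 1.48) for DMD, but these levels were below the 325, 845 and 489 CPM of its free RNA, and free RNA was estimated at up to 14.5%, 13.3% and 17.3% of this class. Itga8 was higher in BMD, at 58.9 CPM in WT against 109.6 in BMD and 87.9 in DMD and a log2 ratio of 0.90 (0.29 to 1.52), and Itgb8 at 1.05 (0.093 to 2.06) from 25 UMIs against 16 in WT. Itga5 was lower in BMD, at -1.14 (-2.17 to -0.20) from 13 UMIs against 38, and Itga4 at -0.94 (-2.24 to 0.22) from 9 UMIs against 23. Each of these 3 was also below its free RNA level, at 45.7, 86.8 and 56.4 CPM for Itgb8, 84.4, 94.6 and 97.2 CPM for Itga5 and 74.3, 47.3 and 59.2 CPM for Itga4. The Itga7 ratio was 0.12 (-0.22 to 0.47) in BMD and -0.14 (-0.49 to 0.20) in DMD. The lower bound in DMD lies above the ratio of Itga7 in DMD cardiomyocyte-like nuclei. At Leiden resolution 1.0, a smooth muscle-like cluster of 216 nuclei, 36.1% of them called doublets, separated from the class, with Itga8 at 163, 287 and 272 CPM in WT, BMD and DMD. That was above its level in the 1357 remaining pericyte-like nuclei, at 47.4, 66.9 and 38.4 CPM. Within these clusters each Itga8 ratio over WT had an interval that included 0. In BMD it was 0.82 (-0.10 to 1.79) in the smooth muscle-like and 0.50 (-0.38 to 1.38) in the pericyte-like cluster. In DMD it was 0.74 (-0.15 to 1.69) and -0.30 (-1.35 to 0.70). Of 17 adaptors in the pericyte-like class 1 was higher in BMD and 3 in DMD. Of 12 other basement membrane genes 1 was higher and 3 lower in BMD and 2 were higher in DMD, and of 7 other ligands 2 were lower in BMD and 2 were higher and 1 lower in DMD.

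In the remaining classes the laminin chains and Itga7 and Itgb1 were as follows. Macrophage-like nuclei had Itgb1 at 395, 382 and 385 CPM, Lamc1 at 509, 589 and 821 CPM, Lama2 at 861, 596 and 995 CPM, Lamb1 at 74.5, 72.7 and 136 CPM, Lamb2 at 36.7, 35.1 and 62.4 CPM and Itga7 at 10.2, 15.8 and 7.48 CPM in WT, BMD and DMD. T or B cell-like nuclei had Itgb1 at 373, 509 and 500.03 CPM, Lamc1 at 846, 688 and 988 CPM and Lama2 at 954, 980.1 and 1028 CPM. The laminin levels of both immune classes were under those of the free RNA, which were 2445, 1751 and 1521 CPM for Lama2 and 1279, 1786 and 1452 CPM for Lamc1. Lymphatic endothelial-like nuclei had Itgb1 at 317, 402 and 382 CPM and Lamc1 at 1075, 931 and 1159 CPM, and endocardial-like nuclei had Itgb1 at 333, 332 and 370.1 CPM and Lama2 at 1724, 868 and 1329 CPM. Schwann cell-like nuclei, 31 to 64 per library, had Lama2 at 3292, 3976 and 2526 CPM and Itgb1 at 421, 214 and 257 CPM. The monocyte or neutrophil-like class was 45.7% called doublets, so its levels are not described.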

How the data were processed

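Nuclei were isolated from the heart apex, sorted by DAPI and sequenced as droplet libraries, 1 per genotype. The deposited values are UMI counts per gene and barcode that the authors made with Cell Ranger on build rn6, per the submitters' processing notes. WT counts were read from a combined file that keeps 76.1% of the BMD UMIs and 92.9% of the DMD UMIs, and BMD and DMD counts from separate full files. With all libraries read from the combined file, 80 of 80 named ratios stayed within their intervals. Columns left unused numbered 0. In each library the barcodes of highest UMI total, up to the number of nuclei the study gives, were kept, and the shallowest kept had 513 to 546 UMIs.

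Clustering used scanpy 1.11.5 and igraph 0.11.9 at Leiden resolution 0.5, on 15 neighbours in 30 principal components of 2000 variable genes. The members, and 8 genes that the study names, were left out of it. A cluster was named when at least 3 listed markers were raised 2-fold. After the clusters were seen, those led by mitochondrial genes or with over 50% doublets (Scrublet) were left unnamed. These were a mitochondrial cluster with 0.301%, 1.01% and 2.64% of WT, BMD and DMD nuclei and a mixed one with 1.67%, 1.01% and 2.59%. A further doublet cluster with 2.69%, 1.59% and 1.93% had too few markers. Doublets elsewhere were kept.

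UMIs were summed per class and library. Intervals are exact Poisson for CPM, conditional binomial for ratios and exact binomial for shares, by scipy 1.17.1. Members with at least 50 UMIs in a class were counted past 1.5-fold on log2 of CPM plus 5. Named members were those past that fold with an interval that left out 0. Lama2, Lamb1, Lamb2, Lamc1, Itga7 and Itgb1 were also named, though not all of them in every class. Many members, but not all, are given with their class of highest level. Named list genes were past the fold with at least 100 UMIs, with Itgb1bp2, Tln2, Vcl, Ilk and Dag1 throughout. Itga1 and Itga5 in cardiomyocyte-like nuclei, Itga4 in pericyte-like nuclei and Thbs1 were named after their values were seen. 1 member enters the counts and medians but is not reported here by name. Genes, lists and tests were chosen with earlier results of these data known. Free RNA shares are upper estimates from markers of other classes, with free RNA read from barcodes of at most 50 UMIs. TMM factors came from edgeR 4.0.16, and plots from matplotlib 3.10.9. The counting steps were checked on simulated data. Promoters are those of RefSeq (GRCr8). Motifs were chosen with the sequences in view.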

Additional observations from a re-analysis of the deposited data

Results flagged for a closer look

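Lama2 and Lamc1 had log2 ratios on opposite sides of 0 in different classes of the same libraries, with counting intervals that left out 0. Members whose ratios differed in size but not in sign were not flagged. Itga8 in BMD over WT was such a case, at 1.90 in cardiomyocyte-like and 3.87 in fibroblast-like nuclei. Lama2 in BMD over WT was 0.064 in cardiomyocyte-like, -0.29 in fibroblast-like and -0.13 in pericyte-like nuclei. In DMD over WT it was 0.17 in cardiomyocyte-like and -0.17 in fibroblast-like nuclei. Lamc1 in DMD over WT was 1.01 in cardiomyocyte-like and 0.20 in pericyte-like nuclei, against -0.053 in fibroblast-like nuclei. Clusters within a class held different shares of each library. Within the 2 cardiomyocyte-like clusters at resolution 1.0 Lama2 in BMD was 0.42 and 0.85, and within the 4 fibroblast-like ones it was 0.18, -0.11, -0.39 and 0.082. With 1 library per genotype, none of these differences between classes was tested.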

How the results depend on the processing

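No paired analysis was possible because there was 1 library per genotype. The 80 named log2 ratios were recomputed under 9 settings, which gave 714 values: 690 stayed within their main interval, 23 moved outside it, and 1 reversed. The reversed value was Lamc1 in pericyte-like nuclei in DMD, at -0.090 with nuclei of at least 1000 UMIs against 0.20. Lamc1 there in BMD went from 0.077, with an interval that included 0, to -0.21 in the same setting. With free RNA subtracted, 6 ratios, among them Itga6 in fibroblast-like nuclei, had no value because a level fell to 0 or below, Itga4 in fibroblast-like nuclei was 5.39 in BMD and 5.80 in DMD, and Itgal in cardiomyocyte-like nuclei -4.14 in DMD. Of 132 counts and medians of members, 122 were within the limits of the main value. These covered cardiomyocyte-like, fibroblast-like and endothelial-like nuclei, and the pericyte-like counts were not recomputed. The 3 fibroblast-like members past 1.5-fold in DMD became 1 with at least 1000 UMIs per nucleus. The 2 endothelial-like members past it in BMD became 1 in nuclei of at least 1000 UMIs, 4 when genes needed 20 UMIs, and 1 on the thinned combined counts. The 1 in DMD became 2 in nuclei of at least 1000 UMIs, with doublets removed, with members left in the clustering or with free RNA subtracted, and 3 with nuclei over 5% mitochondrial removed or with the mean over nuclei. Cardiomyocyte-like counts stayed between 7 and 9. The cause of each shift was not tested. No setting supplies the missing spread between animals.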
